A study of Mus musculus with 4 samples.

Results

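The genes described here are 43 genes of the proteasome: subunits of its core and regulator, the factors that assemble it, 2 alternative caps, and the Nfe2l1 transcription factor with the enzymes that activate it. They were chosen by symbol, with earlier results of these data known. All 43 were found among the 55291 gene symbols of the count tables and passed the filter on low counts. The RNA came from mouse pancreas and gave 4 libraries. Of these, 2 were labelled Pdx1-Cre+, poh1f/f, the genotype in which both copies of poh1 carry loxP sites. The other 2 were labelled Pdx1-Cre+, poh1f/+, with 1 floxed copy, and served as controls. Poh1 is an older name of Psmd14, the deubiquitinase of the proteasome lid, which is not itself among the 43 genes. All mice carried Pdx1-Cre, a recombinase made in progenitors of acinar, duct and islet cells, so the controls can also lose 1 copy in those cells, and other cells of the tissue keep both. The sources used here do not give age, sex, strain or the floxed exons. They also do not say that the libraries are from different mice, so the p-values rest on a spread between libraries that may be technical.

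The proteasome degrades proteins tagged with ubiquitin. Its core is a barrel of stacked alpha and beta rings whose beta subunits hold the proteolytic sites. A regulator caps the barrel: its base has a ring of ATPases that unfolds substrates, and its lid removes ubiquitin. Subunits are made in matched amounts, and dedicated chaperones put them together. When proteasome activity drops, Nfe2l1 (also called Nrf1) escapes destruction at the endoplasmic reticulum, is deglycosylated by Ngly1 and cut by Ddi2, and switches on the subunit genes together. Acinar cells secrete large amounts of protein and rely on this machinery to clear misfolded chains.

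Libraries held 22875618 to 27849730 counts. Levels are given as CPM, counts scaled to a common library size with TMM factors, and 1 count was worth 0.0342 to 0.0455 CPM. Differences are log2 fold changes ± SE, poh1f/f minus poh1f/+, from edgeR's quasi-likelihood test across 19134 genes, and a gene is called at a Benjamini-Hochberg adjusted p under 0.05. Means are ± SD with n = 2 libraries per group. Psmd14 itself had 1839 and 1906 counts (65.9 and 65.2 CPM) in the libraries labelled poh1f/f, against 1354 and 1265 counts (61.6 and 52.9 CPM) in those labelled poh1f/+. It was thus not lower in the libraries labelled poh1f/f (0.20 ± 0.11, 95% interval from -0.09 to 0.48, edgeR adjusted p = 0.259), and every direction below is one between labels. Across all genes, 22.1% were called, 12.1% higher and 9.95% lower in the libraries labelled poh1f/f. Higher genes made up 54.9% of the calls, and 64.9% when libraries were scaled by their totals alone, which moved the median log2 fold change of all genes by 0.10.

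The cell makeup also differed between the libraries. Summed lymphocyte markers were at 2473 and 2136 CPM in the libraries labelled poh1f/f, against 359 and 358 CPM in those labelled poh1f/+, and all 12 were called higher. Summed acinar enzymes were at 204 and 626 CPM against 10816 and 2402 CPM, with 7 of 11 tested called lower. Acinar RNA was nevertheless present in every library: the chymotrypsinogen gene Ctrb1 had 3616 and 10741 counts in the libraries labelled poh1f/f, against 85176 and 29121 counts in those labelled poh1f/+. The amylase Amy2a5 had 0 counts in both libraries labelled poh1f/f, against 67 and 6 counts. It was not tested, since only control replicate 1 held enough counts for the filter on low counts. It does not stand for amylase RNA as a whole. Duct and islet markers were also lower, with 9 of 10 and 7 of 10 called. Fibroblast markers summed to 13765 and 11575 CPM against 32183 and 37596 CPM (7 of 10 called lower), and 8 of 10 macrophage markers were called lower. Adipocyte markers summed to 4146 and 3107 CPM against 388 and 880 CPM (9 of 10 called higher), and 3 of 8 endothelial markers were called higher. A pair of libraries stood apart. Control replicate 1 held the most acinar RNA, and poh1f/f replicate 2 carried enterocyte genes, such as the brush border enzyme Sis with 2508 counts against 0 in each other library. In whole-tissue RNA, fewer cells of a type and less RNA per cell cannot be told apart.

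Of the 43 proteasome genes, 1 was called, the lid subunit gene Psmd8, which fell, against 22.1% of all genes tested. None was called higher. DESeq2, which called 27.8% of all genes, limma-voom, which called 21.6%, and edgeR with the replicate number as a block, which called 17.7%, each called 1 of the 43 as well. An unadjusted edgeR p under 0.05 was reached by 3 of the 43, against 38.4% of all genes. These were Psmd8 and Psme4 with lower levels (18.4% of all genes) and Nfe2l1 with a higher level (20% of all genes). For 42 of the 43 the absolute log2 fold change was under 0.5, and for 42 the 95% interval lay within a 2-fold change either way, against 57.3% and 48.9% of all genes. These shares were not matched for expression level, on which the width of an interval depends. The fold changes had mostly the same sign. The estimate was below 0 for 36 of the 43 genes (50.1% of all genes), with a median of -0.17 against 0.00 over all genes tested. With libraries scaled by their totals alone it was below 0 for 27 of the 43, with a median of -0.08 against 0.10.

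**Figure D1:**
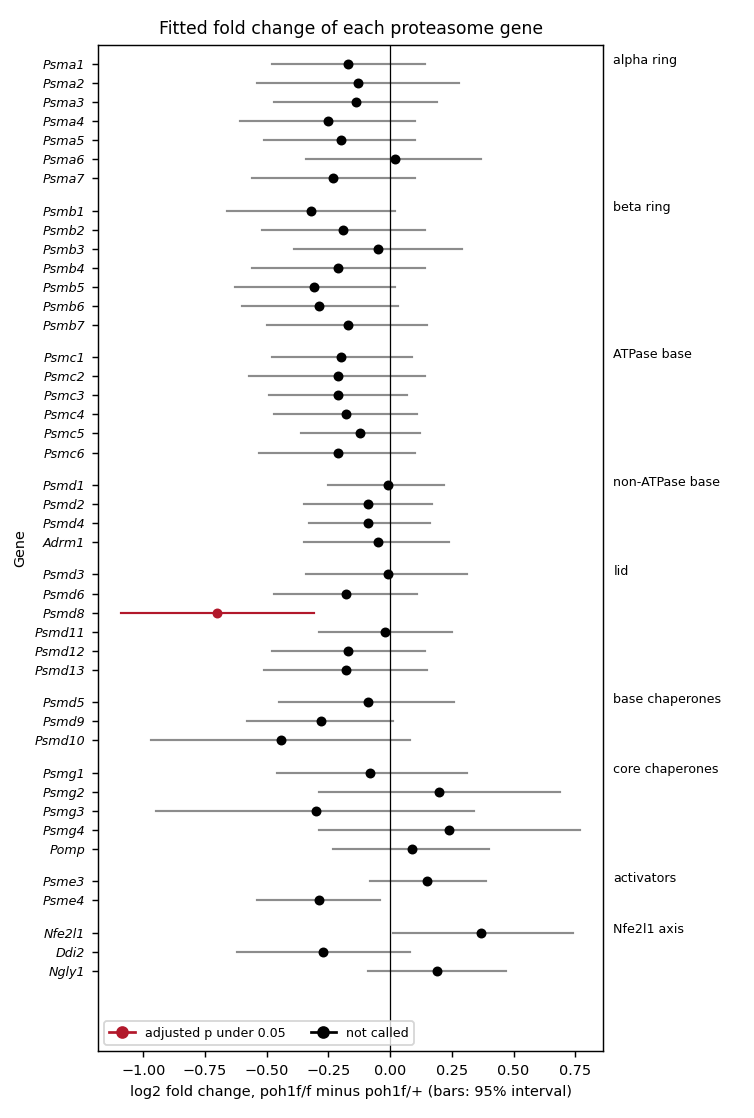
Fitted log2 fold change (poh1f/f minus poh1f/+, horizontal axis) of the 43 proteasome genes, grouped by subcomplex, with points for the estimate and bars for the 95% interval. Psmd8 in red is the 1 gene with an adjusted p under 0.05, and 36 of the 43 estimates lie left of 0.

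The size of the negative median depended on which control library was used. Control replicate 1 was the highest of the 4 libraries for 34 of the 43 genes (30.8% of all genes), and it exceeded control replicate 2 for 39 (50.3% of all genes). The median difference between these controls was 0.24 on the log2 scale, larger than the median of -0.17 between the groups. Without control replicate 1 the median of the 43 genes was -0.03 and 29 estimates were below 0. Without control replicate 2 the median was -0.29 and 38 estimates were below 0. The median over all genes was 0.03 in each of these fits. With 2 controls it cannot be said which of them is the unusual one. Marker sums also differed between the controls. On the log2 scale, control replicate 1 minus control replicate 2 was 2.17 for acinar, 0.78 for islet, 0.31 for duct and 0.18 for macrophage markers. It was -1.18 for adipocyte, -0.41 for endothelial and -0.22 for fibroblast markers. The part of these cell types in the subunit levels was not tested. The summed level of all 43 genes was 3654 and 3720 CPM in the libraries labelled poh1f/f, against 4261 and 3798 CPM in those labelled poh1f/+. The groups did not overlap, but control replicate 2 lay much closer to the libraries labelled poh1f/f than to the other control. With libraries scaled by their totals alone the groups overlapped, and control replicate 2 had the lowest sum.

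**Figure D2:**
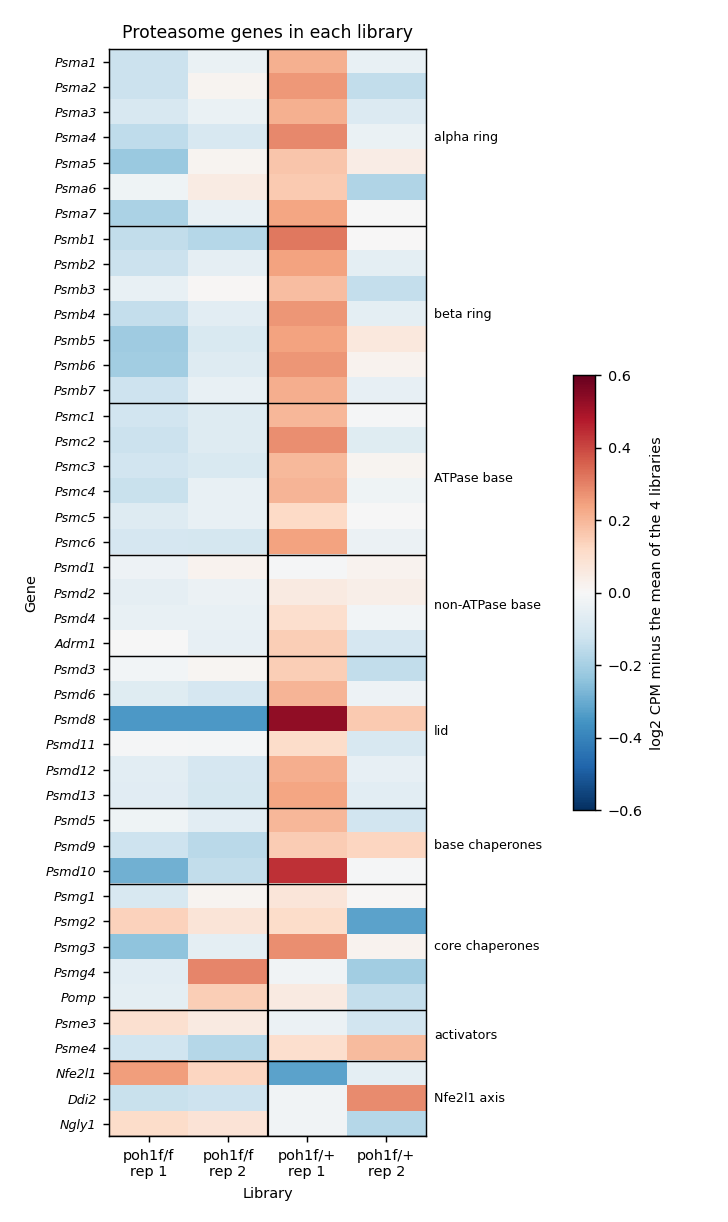
Level of each proteasome gene (rows, by subcomplex) in each library (columns), as log2 CPM minus the mean of the 4 libraries, with red higher and blue lower. The column of control replicate 1 is red for nearly all subunits and for the base chaperones, whereas core chaperone, activator and Nfe2l1 axis genes vary in sign there.

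Upstream sequence is shown for Psmd8 and for the 4 other genes with the smallest p, since these carry the largest test statistics in the set. RefSeq windows on GRCm38.p6 were available for 37 of the 43 genes, and the 250 bases before the most upstream start were read. The remaining genes were Psmb1, Psmb2, Psmb7, Psmc3, Psmd3 and Psmg2. Capitals mark matches, on either strand, to the core of the antioxidant response element TGACNNNGC (the kind of site Nfe2l1 binds with small Maf proteins), the CCAAT box CCAAT, the GC box GGGCGG, the TATA box TATAAA and the E-box CACGTG; adjoining matches run together. The windows are chr7:29180674-29180923 (minus strand) for Psmd8, chr11:30771525-30771774 (plus strand) for Psme4 and chr11:96829969-96830218 (minus strand) for Nfe2l1. Those of Psmd9 and Psmb5 are chr5:123227940-123228189 (plus strand) and chr14:54617996-54618245 (minus strand).
Psmd8: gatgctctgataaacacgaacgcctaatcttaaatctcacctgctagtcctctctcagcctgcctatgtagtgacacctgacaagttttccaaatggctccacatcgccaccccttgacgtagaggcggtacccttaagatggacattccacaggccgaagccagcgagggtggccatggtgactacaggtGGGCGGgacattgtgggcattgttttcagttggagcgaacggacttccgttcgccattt
Psme4: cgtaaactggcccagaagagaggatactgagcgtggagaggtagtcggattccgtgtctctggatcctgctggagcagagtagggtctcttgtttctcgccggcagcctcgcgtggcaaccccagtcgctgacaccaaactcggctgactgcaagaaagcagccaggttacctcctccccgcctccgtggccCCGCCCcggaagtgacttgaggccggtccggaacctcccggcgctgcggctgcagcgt
Nfe2l1: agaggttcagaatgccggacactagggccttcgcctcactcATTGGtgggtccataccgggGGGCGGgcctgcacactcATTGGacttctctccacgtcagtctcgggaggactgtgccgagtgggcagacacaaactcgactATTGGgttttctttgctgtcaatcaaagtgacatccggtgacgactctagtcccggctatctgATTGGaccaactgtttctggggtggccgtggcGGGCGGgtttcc
Psmd9: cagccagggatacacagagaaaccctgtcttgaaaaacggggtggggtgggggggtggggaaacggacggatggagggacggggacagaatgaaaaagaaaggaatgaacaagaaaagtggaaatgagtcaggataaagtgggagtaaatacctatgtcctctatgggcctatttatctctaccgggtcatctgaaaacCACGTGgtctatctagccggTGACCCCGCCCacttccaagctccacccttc
Psmb5: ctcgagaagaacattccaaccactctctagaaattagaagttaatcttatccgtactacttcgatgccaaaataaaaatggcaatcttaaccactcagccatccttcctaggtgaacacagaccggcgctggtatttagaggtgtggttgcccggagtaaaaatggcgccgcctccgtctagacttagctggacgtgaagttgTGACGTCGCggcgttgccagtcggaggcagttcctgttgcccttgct
Psmd8, the gene that fell, had 1 GC box and no antioxidant element core in this window, and Psme4 had the same pattern. Nfe2l1 held 4 CCAAT boxes and 2 GC boxes. In Psmd9 the antioxidant element core overlapped the GC box. Over the 37 windows, the antioxidant element core was found in 6 (Psmb5, Psmb6, Psmc6, Adrm1, Psmd12 and Psmd9), or 16.2%, against 10.1% of 27025 windows of all genes. The GC box was found in 23, or 62.2%, against 33%, the CCAAT box in 13, or 35.1%, against 34.5%, and the TATA box in 3, or 8.11%, against 13%. The E-box was found in 3, or 8.11%, against 6.04%. The windows of all genes were not limited to the 19134 tested genes or matched for expression, so these shares are not a like-for-like comparison. A match is a description of letters and not of binding.

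The alpha ring forms the gates and outer walls of the core. None of its 7 genes was called, and 6 had estimates below 0 (median -0.17). Psma4 had the lowest estimate, with 101 and 105 CPM in the libraries labelled poh1f/f, against 137 and 109 CPM in those labelled poh1f/+ (-0.25 ± 0.14, edgeR adjusted p = 0.246). Its groups did not overlap, but control replicate 2 lay near both libraries labelled poh1f/f. Psma6 had the highest estimate, with 82.3 and 86.7 CPM against 93.5 and 73.8 CPM (0.02 ± 0.14, edgeR adjusted p = 0.947), and its controls lay on either side of the other libraries. The remaining 5 genes had estimates from -0.23 (Psma7) to -0.13 (Psma2). Both libraries labelled poh1f/f lay below both controls for 3 of the 7 genes, against 33.7% of all genes. The ring summed to 627 and 677 CPM in the libraries labelled poh1f/f, against 805 and 658 CPM in those labelled poh1f/+, so the groups overlapped.

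The beta ring carries the active sites, with Psmb5 for the chymotrypsin-like, Psmb6 for the caspase-like and Psmb7 for the trypsin-like activity. None of the 7 genes was called and all had estimates below 0 (median -0.21). Psmb1, a structural subunit, had 109 and 107 CPM in the libraries labelled poh1f/f, against 150 and 121 CPM in those labelled poh1f/+ (-0.32 ± 0.13, edgeR adjusted p = 0.147). Its groups did not overlap, and it was called without control replicate 2 (-0.47, edgeR adjusted p = 0.0451). Psmb5 had 29.9 and 32.5 CPM against 41 and 36.2 CPM (-0.31 ± 0.13, edgeR adjusted p = 0.146), again without overlap. Psmb6 had 84.5 and 92.4 CPM against 117 and 98.9 CPM (-0.29 ± 0.12, edgeR adjusted p = 0.156), and its groups were apart as well. Psmb7 had 45 and 47.5 CPM against 57 and 47.4 CPM (-0.17 ± 0.13, edgeR adjusted p = 0.372), with control replicate 2 between the libraries labelled poh1f/f. Psmb3, the structural subunit with the estimate nearest to 0, had 77.3 and 80.1 CPM against 90.7 and 72.3 CPM (-0.05 ± 0.13, edgeR adjusted p = 0.819). Its estimate turned positive when libraries were scaled by their totals alone (0.05) and without control replicate 1 (0.12). The ring summed to 501 and 524 CPM in the libraries labelled poh1f/f, against 659 and 539 CPM in those labelled poh1f/+.

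Per kb of principal transcript, the most abundant core genes were the same in both groups. In the alpha ring Psma7 had the highest level, 135 CPM per kb in the libraries labelled poh1f/f and 159 in those labelled poh1f/+, and Psma2 the lowest, 31.2 and 34.1. In the beta ring Psmb6 was highest, 111 and 135 CPM per kb, and Psmb5 lowest, 34.7 and 42.9. The genes of 1 ring enter each particle in equal number, and their RNA levels per length spanned 4.32-fold and 4.64-fold in the alpha ring, and 3.19-fold and 3.15-fold in the beta ring. These spans depend on which transcript is taken as the principal one.

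The 6 ATPases, Psmc1 to Psmc6, form the ring that pulls substrates into the core. None was called, and with TMM factors both libraries labelled poh1f/f lay below both controls for all 6 (33.7% of all genes). Their estimates lay within the narrow range of -0.21 to -0.12. With libraries scaled by their totals alone, the groups overlapped for each of the 6, and the median estimate was -0.10 instead of -0.20. Psmc6 had 86.8 and 86.5 CPM in the libraries labelled poh1f/f, against 110 and 90.8 CPM in those labelled poh1f/+ (-0.21 ± 0.12, edgeR adjusted p = 0.265). Psmc5 had 79.2 and 81.1 CPM against 90.7 and 83.5 CPM (-0.12 ± 0.09, edgeR adjusted p = 0.401). In both, control replicate 2 was within 5 CPM of the nearer library labelled poh1f/f. The ATPases summed to 562 and 576 CPM in the libraries labelled poh1f/f, against 700 and 600 CPM in those labelled poh1f/+.

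The non-ATPase genes of the base varied less. Psmd1 and Psmd2 encode its large scaffolds, and Psmd4 and Adrm1 its ubiquitin receptors. Psmd2 was the most abundant by CPM, with 187 and 190 CPM in the libraries labelled poh1f/f, against 202 and 199 CPM in those labelled poh1f/+ (-0.09 ± 0.10, edgeR adjusted p = 0.571). Psmd1 had 109 and 113 CPM against 111 and 113 CPM (-0.01 ± 0.09, edgeR adjusted p = 0.933), with overlapping groups. Its sign turned when libraries were scaled by their totals alone. Psmd4 had 105 CPM in each library labelled poh1f/f, against 116 and 107 CPM in those labelled poh1f/+ (-0.09 ± 0.10, edgeR adjusted p = 0.544, and 0.01 with scaling by library totals alone). Adrm1 had 76.4 and 73.9 CPM against 84.8 and 71.3 CPM, and its groups overlapped (-0.05 ± 0.12, edgeR adjusted p = 0.771). The difference between controls was small here: the 4 genes summed to 477 and 481 CPM in the libraries labelled poh1f/f, against 513 and 490 CPM in those labelled poh1f/+.

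The lid holds the called gene. Psmd8 (chr7:29174188-29180701, minus strand, GRCm38) encodes a lid subunit whose yeast counterpart, Rpn12, joins the lid last. It had 3376 and 3534 counts in the libraries labelled poh1f/f, against 4872 and 4084 counts in those labelled poh1f/+. In CPM this was 121 and 121 against 222 and 171. The groups did not overlap, the libraries labelled poh1f/f were nearly equal, and the controls were further apart. Psmd8 fell by 0.70 ± 0.15 on the log2 scale (95% interval from -1.09 to -0.31, edgeR adjusted p = 0.0335, lower in both libraries labelled poh1f/f). Without control replicate 1 the estimate was -0.50 and the call was lost (edgeR adjusted p = 0.0584). It was also lost without poh1f/f replicate 1 (-0.70, edgeR adjusted p = 0.0626) or poh1f/f replicate 2 (-0.70, edgeR adjusted p = 0.0709).

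The other lid genes did not share the size of that change. Psmd6, Psmd12 and Psmd13 had estimates of -0.18, -0.17 and -0.18, and Psmd3 and Psmd11 of -0.01 and -0.02 (edgeR adjusted p from 0.309 to 0.951). Psmd3 had 100 and 102 CPM in the libraries labelled poh1f/f, against 112 and 91.4 CPM in those labelled poh1f/+, and Psmd11 had 75.2 and 74.9 CPM against 81.4 and 70.7 CPM. In both genes the libraries labelled poh1f/f fell between the controls. Per kb, Psmd8 was the most abundant of the 6 lid genes in every library. It stood at 2.19 and 2.25 times the median of the 5 other lid genes in the libraries labelled poh1f/f, against 3.31 and 3.07 times in those labelled poh1f/+. Psmd14 stood at 1.19 and 1.21 times the median of the same 5 genes, against 0.918 and 0.95 times. The ratio per kb of Psmd8 over Psmd14 was 1.84 and 1.86 against 3.6 and 3.23. These ratios did not overlap between groups, and the controls lay closer together, as ratios, than in the CPM of Psmd8 itself. With 2 libraries against 2, an exact two-sided permutation test cannot give a p below 0.333, which is the value for each of the 9 ratios computed here, also after adjustment over the 9. Psmd7, the lid partner of Psmd14, had 83.2 and 83.9 CPM against 108 and 90.9 CPM (-0.25 ± 0.12, edgeR adjusted p = 0.182). Sem1, a small lid subunit, had 70.2 and 70.5 CPM against 97.1 and 86.2 CPM and was just short of the threshold (-0.38 ± 0.10, edgeR adjusted p = 0.0534; called by DESeq2, adjusted p = 0.041).

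**Figure D3:**
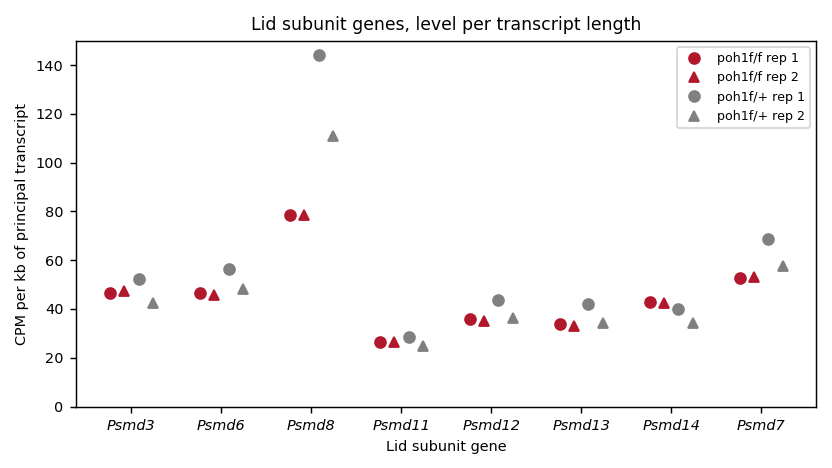
Level of 8 lid subunit genes in CPM per kb of principal transcript (vertical axis, from 0), with red symbols for the libraries labelled poh1f/f, grey for those labelled poh1f/+, circles for replicate 1 and triangles for replicate 2. Psmd8 stands at 78.5 and 78.6 CPM per kb in the libraries labelled poh1f/f, against 144 and 111 in those labelled poh1f/+, while Psmd14 is slightly higher in the libraries labelled poh1f/f.

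Assembly factors fall into those of the base and those of the core. Psmd5, Psmd9 and Psmd10 hold ATPase modules until the base is complete, and none of the 3 was called. Psmd9 had 25.7 and 25.1 CPM in the libraries labelled poh1f/f, against 31.2 and 30.7 CPM in those labelled poh1f/+ (-0.28 ± 0.12, edgeR adjusted p = 0.142). Both pairs of replicates lay within 1 CPM of each other and the groups were apart. Psmd9 shares 25.5% of its exon bases with a long noncoding RNA gene on the opposite strand, so some of its reads cannot be assigned with certainty. Psmd10, also known as the oncoprotein gankyrin, had 12.7 and 14 CPM against 21 and 15.4 CPM (-0.44 ± 0.21, edgeR adjusted p = 0.181), the lowest estimate after Psmd8. Psmd5 had 44 and 42.9 CPM against 51.4 and 41.4 CPM (-0.09 ± 0.14, edgeR adjusted p = 0.66), with overlap, and its sign turned without control replicate 1.

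The core chaperones gave estimates on both sides of 0 (median 0.09). Psmg1 with Psmg2, and Psmg3 with Psmg4, form the complexes on which alpha rings are built, and Pomp brings in the beta subunits and is then the first substrate of the new core. Pomp had 74.3 and 85.7 CPM in the libraries labelled poh1f/f, against 80.5 and 70.1 CPM in those labelled poh1f/+ (0.09 ± 0.12, edgeR adjusted p = 0.641), and the groups overlapped. Psmg4 had 10.1 and 12.9 CPM against 10.4 and 9.12 CPM (0.24 ± 0.21, edgeR adjusted p = 0.448). Its partner Psmg3 had 3.83 and 4.35 CPM against 5.5 and 4.6 CPM (-0.30 ± 0.25, edgeR adjusted p = 0.427), the least counted of the 43 genes with 107 to 127 counts a library. The partners Psmg1 and Psmg2 had estimates of -0.08 and 0.20, and neither was called. Per kb, Psmg1 to Psmg4 lay below every core subunit gene in both group means, with Psmg3 lowest at 4.63 CPM per kb in the libraries labelled poh1f/f and 5.72 in those labelled poh1f/+. Pomp, at 50.7 and 47.7 CPM per kb, lay within the range of the core genes. The 5 genes summed to 121 and 136 CPM against 131 and 112 CPM, with overlapping groups.

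**Figure D4:**
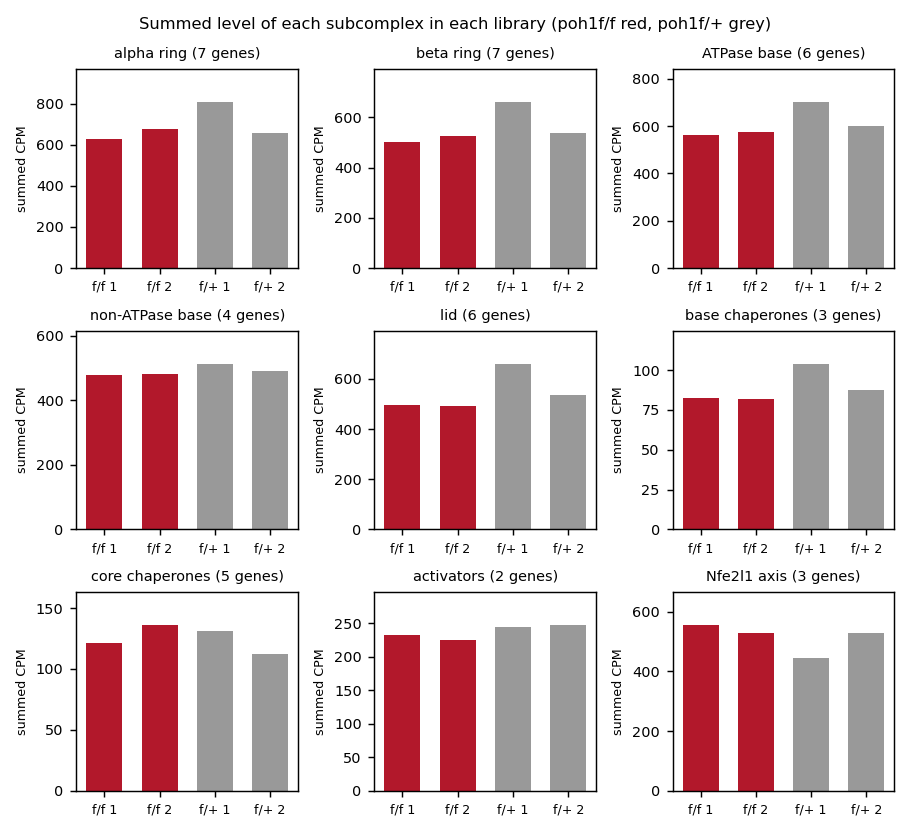
Summed CPM (vertical axes, from 0) of each subcomplex in each library, with the libraries labelled poh1f/f in red and those labelled poh1f/+ in grey. Control replicate 1 is the highest bar in the alpha ring, beta ring, ATPase base, non-ATPase base, lid and base chaperone panels, and the lowest in the Nfe2l1 axis panel.

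The estimates of the 2 alternative caps lay on opposite sides of 0, and neither was called. Psme3, a nuclear activator of ubiquitin-independent degradation, had 107 and 104 CPM in the libraries labelled poh1f/f, against 97.7 and 92.3 CPM in those labelled poh1f/+ (0.15 ± 0.09, edgeR adjusted p = 0.287). Psme4, an activator linked to the breakdown of acetylated histones, had 125 and 121 CPM against 146 and 155 CPM (-0.29 ± 0.10, unadjusted p = 0.0309, edgeR adjusted p = 0.0949). Neither gene had overlapping groups, with Psme3 higher (34.4% of all genes) and Psme4 lower (33.7% of all genes) in both libraries labelled poh1f/f. Psme4 was highest in control replicate 2, unlike the core subunits. Per kb, Psme3 over Psme4 was 2.09 and 2.1 in the libraries labelled poh1f/f, against 1.63 and 1.45 in those labelled poh1f/+.

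The genes of the Nfe2l1 axis did not follow the pattern of the subunit genes across libraries. Nfe2l1 (chr11:96817414-96829968, minus strand) was the most abundant of the 43 genes by CPM, with 10018 and 9646 counts in the libraries labelled poh1f/f, against 5312 and 6926 counts in those labelled poh1f/+. This was 359 and 330 CPM against 242 and 290 CPM. Both libraries labelled poh1f/f were above both controls (34.4% of all genes), and control replicate 1, highest for most subunits, was lowest here. The estimate did not pass over all genes (0.37 ± 0.14, 95% interval from 0.01 to 0.74, unadjusted p = 0.0459, edgeR adjusted p = 0.123; DESeq2 adjusted p = 0.0516). It ranged from 0.25 to 0.51 when single libraries were left out. Ddi2, the protease that cuts Nfe2l1, had 148 and 149 CPM against 160 and 198 CPM (-0.27 ± 0.14, edgeR adjusted p = 0.213). Its exons include those of Rsc1a1 on the same strand (18.3% of its exon bases), listed at 0 counts in all libraries. Ngly1, the glycanase that deglycosylates Nfe2l1, had 48.2 and 47.3 CPM against 44.1 and 39.7 CPM (0.19 ± 0.11, edgeR adjusted p = 0.268). Nfe2l1 and Ngly1 were thus higher (34.4% of all genes) and Ddi2 lower (33.7% of all genes) in both libraries labelled poh1f/f than in both controls. None of the 3 was called. Per kb, Nfe2l1 over Ddi2 was 4.99 and 4.54 in the libraries labelled poh1f/f, against 3.1 and 3 in those labelled poh1f/+.

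Of 54 other genes of the pathway found in the count tables, 52 were tested, 4 were called higher (12.1% of all genes) and 2 lower (9.95% of all genes). The calls fell in 2 of the lists. Among inducible immunoproteasome genes, which replace or supplement constitutive parts in lymphocytes and under interferon, 4 of 5 rose. Psmb9 had 102 and 136 CPM in the libraries labelled poh1f/f, against 40.3 and 45.4 CPM in those labelled poh1f/+ (1.48 ± 0.17, edgeR adjusted p = 0.00769). Psmb8 had 90.4 and 109 CPM against 47.7 and 51.4 CPM (1.01 ± 0.13, edgeR adjusted p = 0.0091). Psme1 and Psme2, which form an activator cap, rose by 0.55 ± 0.14 and 0.56 ± 0.14 (edgeR adjusted p = 0.0473 and 0.0492). Psmb10 did not pass (0.44, edgeR adjusted p = 0.106). Lymphocyte and adipocyte markers, at the values given above, were higher in the same libraries. Endothelial markers were mixed, with sums of 1270 and 1191 CPM against 781 and 1035 CPM and 1 of 8 estimates below 0. Enterocyte markers summed to 134 and 1026 CPM against 267 and 217 CPM. All 5 immunoproteasome genes were highest in poh1f/f replicate 2. The lymphocyte, adipocyte and endothelial sums were higher in poh1f/f replicate 1. The order of the lymphocyte sum came from Jchain, with 924 CPM in poh1f/f replicate 1 against 508 CPM in poh1f/f replicate 2. In poh1f/f replicate 1, 7 of 12 lymphocyte markers were lower than in poh1f/f replicate 2. The same held for 3 of 10 adipocyte and 4 of 8 endothelial markers. The part of these cell types was not tested. Without control replicate 1 none of these calls held (edgeR adjusted p = 0.0688 for Psmb9 and 0.069 for Psmb8, 0.125 for Psme1 and 0.165 for Psme2), although the estimates were 1.39, 0.96, 0.62 and 0.59. Psme1 and Psme2 also lost their calls when poh1f/f replicate 2 was left out (0.40 and 0.38, edgeR adjusted p = 0.264 and 0.261), and when control replicate 2 was (0.49 and 0.54, edgeR adjusted p = 0.141 and 0.153). With the replicate block their edgeR adjusted p was 0.0857 and 0.0728, and with upper quartile factors or either other filter both also missed the threshold.

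Against their constitutive counterparts, the inducible beta subunit genes stood higher in both libraries labelled poh1f/f than in both controls. Per kb, Psmb8 over Psmb5 was 1.67 and 1.84 in the libraries labelled poh1f/f, against 0.643 and 0.784 in those labelled poh1f/+. Psmb9 over Psmb6 was 0.714 and 0.87 against 0.203 and 0.271. Psmb10 over Psmb7 was 1.34 and 1.69 against 0.902 and 1.1. Psme2 over Psme3, which are genes of different caps and not counterparts, was 3.32 and 4.36 against 2.86 and 2.92. The groups did not overlap in any of these 4 ratios, which were chosen after their values were seen. Each had an exact permutation p of 0.333, the smallest possible with 2 libraries against 2. None of the constitutive counterparts Psmb5, Psmb6 and Psmb7 was called, and neither was Psme3.

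**Figure D5:**
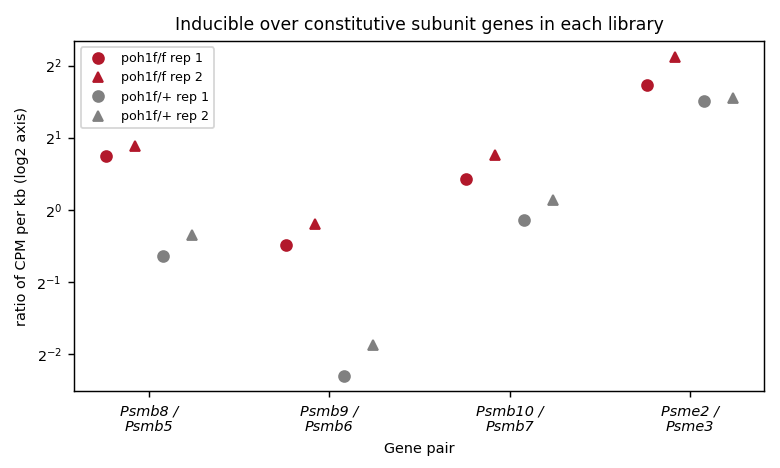
Ratio of CPM per kb of an inducible gene to its constitutive counterpart in each library, on a log2 axis. Psme2 is instead set over Psme3, a gene of a different cap. Red symbols are the libraries labelled poh1f/f and grey those labelled poh1f/+, with circles for replicate 1 and triangles for replicate 2. Psmb8 over Psmb5 is above 1 in both libraries labelled poh1f/f and below 1 in both controls.

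The 2 lower genes belong to the list of Nfe2l1 processing and turnover, in which 13 were tested. Nfe2l2, the related transcription factor of the antioxidant response, had 160 and 149 CPM in the libraries labelled poh1f/f, against 256 and 221 CPM in those labelled poh1f/+ (-0.63 ± 0.13, edgeR adjusted p = 0.0277). Mafg, a small Maf protein that pairs with Nfe2l1 and Nfe2l2 on DNA, had 95.7 and 95 CPM against 121 and 130 CPM (-0.40 ± 0.10, edgeR adjusted p = 0.0434). In both genes the groups were apart, with both libraries labelled poh1f/f below both controls (33.7% of all genes). Without control replicate 1 neither was called (edgeR adjusted p = 0.0666 for Nfe2l2 and 0.0659 for Mafg), with estimates of -0.51 and -0.45. Nfe2l2 was also not called without poh1f/f replicate 1 or 2 (edgeR adjusted p = 0.069 and 0.142), nor Mafg without these or control replicate 2 (0.232, 0.272 and 0.0697). Nfe2l2 thus fell while the estimate of Nfe2l1 was above 0, and the difference between these genes was not tested. Syvn1, the ubiquitin ligase that marks Nfe2l1 for destruction, had 114 and 91.4 CPM against 78 and 68 CPM and did not pass (0.49 ± 0.15, edgeR adjusted p = 0.0698).

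None of the 9 proteasome-bound enzymes and inhibitors, 16 ubiquitin shuttles and unfoldase genes, or 5 ubiquitin genes was called by edgeR, against 22.1% of all genes. An unadjusted p under 0.05 was reached with a higher level in the libraries labelled poh1f/f by 2, 1 and 0 genes of these lists (20% of all genes), and with a lower level by 1, 1 and 0 (18.4% of all genes). Vcp, the unfoldase that hands substrates to the proteasome, had 326 and 314 CPM against 327 and 320 CPM (-0.02 ± 0.11, edgeR adjusted p = 0.938). Usp14, a deubiquitinase bound to the base, had 56.7 and 58.4 CPM against 63.5 and 55.8 CPM (-0.05 ± 0.11, edgeR adjusted p = 0.757). The testis-specific core subunit Psma8 stood at 0.716 and 0.822 CPM against 1.82 and 1.25 CPM. The thymus-specific Psmb11 had at most 2 counts a library and was not tested.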

How the data were processed

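RNA of 4 mouse pancreas libraries was analysed, 2 labelled Pdx1-Cre+, poh1f/f and 2 labelled Pdx1-Cre+, poh1f/+, with groups and replicate numbers taken from the sample titles. The submitters' processing notes name the build GRCm38 and the tools STAR 2.7.6a, featureCounts 2.0.1, SAMtools 1.7, Trim Galore 0.6.6 and FastQC 0.11.9. The values the authors deposited are raw counts for each gene symbol; their annotation release, strand setting and treatment of multi-mapped reads were not given in the sources used here. Reads of overlapping genes (Psmb7 with Nek6, Psmc3 with Slc39a13, Psmd13 with Sirt3, Psmd1 with Htr2b) cannot be told apart without strand, and processed copies of Psmb5, Psmb6 and Psmb7 had 0 to 4 counts.

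The main test was the quasi-likelihood F test of edgeR 4.0.16, run in R 4.3.3 (filterByExpr, TMM factors 0.962 to 1.05, group as the only term, Benjamini-Hochberg at 0.05 over 19134 genes) and checked on simulated data. The SE was taken as |log2 fold change|/√F. Gene positions and lengths come from GENCODE M21, in which 53292 of 55291 symbols were found, the length being that of the longest transcript of the best APPRIS grade. Replicates were not copies of each other (chi-square per degree of freedom 32.5 within poh1f/f and 46.2 within poh1f/+). Alternatives were other scalings, filters, DESeq2 1.42.0, limma-voom 3.58.1, a replicate block, and fits with 1 library omitted. The members, lists and tests were chosen with earlier results of these data known. Fully described genes were Psmd14, members with an unadjusted p under 0.05, the extremes of each subcomplex, Nfe2l1, Ddi2, Ngly1 and Pomp, and called pathway genes; other genes named, and the ratios, were chosen after their values were seen. Intervals cover the spread between libraries, and depth limits only the rarest members, such as Psmg3.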

Additional observations from a re-analysis of the deposited data

How the results depend on the processing

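The call of 1 member, Psmd8, was the same under 3 other scalings, 2 other filters, DESeq2, limma-voom and the replicate block, and ranged from 0 to 2 members when single libraries were left out; the member median then ranged from -0.29 to -0.03. Calls over all genes ranged from 1126 to 4034 (702 to 2338 higher and 424 to 1696 lower) in those fits, in which a group left with 1 library borrows its spread from the other. Pathway calls ranged from 0 to 7, with 0 to 5 higher and 0 to 4 lower. With library totals alone 7 pathway genes were higher and 1 lower, and the summed level of the members was -0.03 on the log2 scale instead of -0.13. Overlap between groups was read with TMM factors throughout. Some separations were lost with totals alone, such as those of this sum, the ATPase genes, Psma4 and Psmb6. Upper quartile factors and the filter on a mean count of 10 gave 2 higher pathway genes, and no low-count filter gave 3 calls, 2 higher and 1 lower. With the replicate block there were 3 pathway calls, 2 higher and 1 lower, and 3392 calls over all genes. Deviations of same-numbered libraries correlated at 0.0282 over all genes. A single correlation cannot exclude a shared batch, and the labels name none. Psme1 and Psme2 also lost their calls with upper quartile factors (edgeR adjusted p = 0.0518 and 0.0541), the mean count filter (0.053 and 0.0556) and no filter (0.0532 and 0.0554), Psme2 with limma-voom (0.0523), and Mafg with library totals (0.0911), no filter (0.0588) and the replicate block (0.1). Psmd14 was called under no alternative, with estimates from 0.09 to 0.31.

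Members near 0 changed sign without being called. With library totals alone 27 of the 43 estimates were below 0, and among genes described in full the values that turned were 0.05 for Psmb3, 0.09 for Psmd1, 0.01 for Psmd4 and 0.09 for Psmd3. Leaving out single libraries gave -0.14 to 0.20 for Psma6, -0.20 to 0.12 for Psmb3, -0.04 to 0.01 for Psmd1, -0.15 to 0.14 for Psmd3, -0.24 to 0.07 for Psmd5 and -0.02 to 0.19 for Pomp, and also -0.32 to 0.09 for Psma2, -0.28 to 0.02 for Psma3, -0.17 to 0.08 for Adrm1 and -0.12 to 0.09 for Psmd11. The cause was not tested.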
